A study of Caenorhabditis elegans with 2 samples.

Results

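The vitellogenin genes vit-1 to vit-6 of Caenorhabditis elegans encode the large precursor proteins of yolk. They were taken by name from the annotation, as 6 of the 19973 protein-coding genes on the nuclear chromosomes. No measured value entered that rule, but earlier results of these data were known when the genes were chosen. All 6 names were found, with vit-1 to vit-5 on the X chromosome and vit-6 on chromosome IV, and the genes were 5128 to 5303 bp long. Binding of NFYB-1 was mapped by chromatin immunoprecipitation and sequencing (ChIP-seq) in 1 group of 2 biological replicates, with no second condition. Both replicates were whole young adults of strain RW12190 at 65 hours, synchronised as starved first-stage larvae after bleaching. Each animal carried st12190, an insertion made with CRISPR that added TY1, EGFP and 3xFLAG to nfyb-1 on chromosome II, and the precipitation used an antibody to GFP. A region could therefore not be assigned to the intestine or to any other tissue, and binding in fewer cells could not be told apart from weaker binding in more cells.

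NFYB-1 is the B subunit of NF-Y, a factor of 3 subunits that recognises the CCAAT box, usually near the starts of genes. Vitellogenins are made in the adult intestine, secreted into the body cavity and taken up by oocytes through the yolk receptor RME-2. Their transcription is known to depend on the intestinal GATA factor ELT-2 and on cofactors of the homeodomain class, among them UNC-62 and CEH-60. The heptamers TGTCAAT and CTGATAA are known from earlier work on vitellogenin promoters, the second being a GATA-type sequence. Whether the genes were transcribed in these animals was not measured.

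The bases before 3 of the starts are shown first, because the question at each gene was whether NFYB-1 lay there or elsewhere. They are given 5′ to 3′ on the strand of the gene, and capitals mark matches on either strand to CCAAT, to the heptamer TGTCAAT or to the GATA-type CTGATAA, which overlapped nowhere in them. The sequences are RefSeq's, assembly WBcel235, the same assembly as ce11.
vit-2, bases before the start, chrX:5100792-5101041, plus strand: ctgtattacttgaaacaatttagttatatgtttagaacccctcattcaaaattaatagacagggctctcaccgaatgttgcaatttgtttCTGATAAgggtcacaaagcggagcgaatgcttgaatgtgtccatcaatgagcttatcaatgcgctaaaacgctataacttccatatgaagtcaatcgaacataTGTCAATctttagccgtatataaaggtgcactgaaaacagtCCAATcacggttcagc
vit-5, bases before the start, chrX:3403221-3403470, plus strand: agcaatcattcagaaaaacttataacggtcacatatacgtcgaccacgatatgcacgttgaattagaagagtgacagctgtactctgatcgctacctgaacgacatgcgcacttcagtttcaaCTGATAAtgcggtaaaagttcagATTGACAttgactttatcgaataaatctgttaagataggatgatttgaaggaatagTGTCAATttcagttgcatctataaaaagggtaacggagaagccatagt
vit-6, bases before the start, chrIV:8260907-8261156, plus strand: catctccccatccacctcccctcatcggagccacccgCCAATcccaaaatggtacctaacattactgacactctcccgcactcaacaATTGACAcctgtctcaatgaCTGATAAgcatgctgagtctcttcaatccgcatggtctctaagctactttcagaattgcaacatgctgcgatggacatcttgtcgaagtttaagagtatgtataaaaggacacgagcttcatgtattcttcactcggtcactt

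In windows from 250 bp before to 50 bp after the start, TGTCAAT was present at 6 of 6 vitellogenin genes, against 5.77% of all 19973 protein-coding starts. CTGATAA was present at 5 of 6, with vit-3 as the exception, against 8.15% of all starts. These heptamers were described on such promoters, so their presence here is a property of the chosen genes. CCAAT was present at 4 of 6, against 45.5% of all starts, and vit-4 and vit-5 lacked it. Counted from the start base as 0, the box lay at -16 to -12 in vit-2 and at -213 to -209 in vit-6. In vit-1 one box lay at -43 to -39 and another just past the start, and vit-3 had a pair, the nearer at -121 to -117. A match is a string of letters and not a measured site.

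No vitellogenin promoter held an NFYB-1 region in any thresholded list. The promoter was taken as the 1000 bp before the start, and a region was placed by its summit. The main list, the conservative one of the authors' whole-series lists at an irreproducible discovery rate (IDR) of 0.01, had 0 of 6 genes with a promoter summit, where 7.80% of all protein-coding genes and 10.9% of those of 4 to 6 kb had one. The other whole-series list and the lists of replicates 1 and 2 also had 0 of 6, with 7.90%, 4.18% and 5.53% of all genes called. Against such shares, 0 of 6 is near the background and does not set these promoters apart. No test was made on 6 genes chosen by name.

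Gene bodies, from the annotated start to the end, held regions at vit-2 and vit-6. In the main list 2 of 6 genes had a body summit, where 7.24% of all protein-coding genes and 10.5% of those of 4 to 6 kb had one. The count was also 2 of 6 in the list of replicate 1 (2.92% of all genes and 4.23% of those of 4 to 6 kb called), in that of replicate 2 (4.10% and 5.78%) and in the other whole-series list (7.50% and 10.7%), and in each of them the genes were vit-2 and vit-6. Among the genes of 4 to 6 kb, 8.47% had a body summit and no promoter summit in the main list, as these genes did. None of the 4 thresholded lists had a summit in vit-1, vit-3, vit-4 or vit-5.

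**Figure D1:**
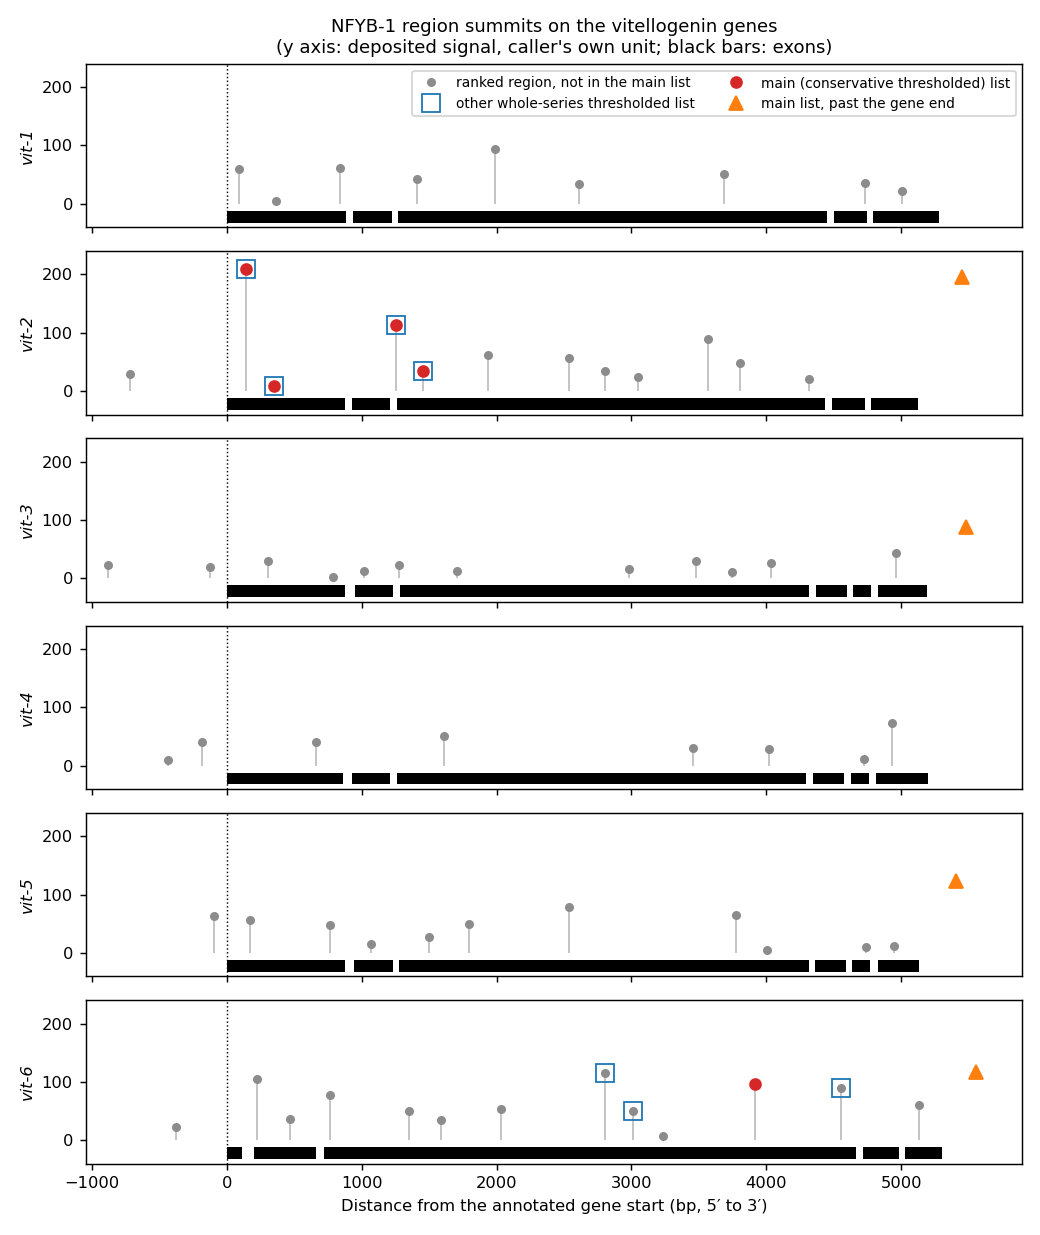
Summits of NFYB-1 regions on the 6 vitellogenin genes, by distance from the annotated start in bp (x axis) and deposited whole-series signal in the caller's own unit (y axis), with exons as black bars. Red points are the 5 main-list regions in the bodies of vit-2 and vit-6, squares the other whole-series thresholded list, grey points ranked regions outside the main list, and triangles main-list summits within 500 bp past 4 gene ends, where ranked regions are not drawn.

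The regions of vit-2 formed 2 stretches near its 5′ end. The 4 main-list regions overlapped in pairs and covered chrX:5100996-5101575 (580 bp) and chrX:5102104-5102679 (576 bp), together 21.6% of the gene. Of the 2008 protein-coding genes of 4 to 6 kb, vit-2 included, 0.249% had 4 or more body summits in the main list. The cut of 4 was the count of vit-2 itself, with overlapping regions counted singly, so no weight can be given to that share. The first stretch began before the annotated start, so by overlap in place of the summit vit-2 would count as a promoter too, and 9.26% of all genes would then be called. A promoter reaching 200 bp past the start, tried once the values were known, also took in its first summit, with 8.73% of all genes called.

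The highest summit on any vitellogenin gene lay 142 bp past the vit-2 start, in coding sequence, with a whole-series signal of 210 at rank 716 of 3890. In the ranked lists of the replicates, which hold regions down to low scores, the nearest region had a signal of 114 in replicate 1 and 86.0 in replicate 2 (99.9 ± 19.6, mean ± SD, n = 2). It passed the threshold in both replicates, at score 1000 each, the highest score possible. The replicates placed its summit differently, 155 bp past the start in replicate 1 and 57 bp in replicate 2. Replicate 2 also called a region with its summit 265 bp past the start (69.8, score 878). Whole-series and replicate signals are on different scales and were not compared with each other. Means, SDs and log2 ratios set the lists of the 2 replicates side by side. The depth and signal scale of each list are unknown, so these values mix list scale with binding. The summit 346 bp past the start had a whole-series signal of only 8.73 at rank 3837, and the replicate 1 region nearest to it was the same one as for the summit at 142 bp. The 2 overlapping regions were therefore read as 1 stretch.

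The second vit-2 stretch repeated less well. Its summits lay 1250 bp past the start, in an intron, and 1450 bp past it, in coding sequence, with whole-series signals of 114 and 34.9. One region of each replicate was nearest to both, with a signal of 78.3 in replicate 1 and 49.6 in replicate 2 (64.0 ± 20.2, mean ± SD, n = 2). Replicate 1 had it in its thresholded list at score 922, and replicate 2 did not, at score 534 against a lowest listed score of 830. At both stretches replicate 1 was the higher replicate, by a log2 ratio of replicate 2 over replicate 1 of -0.40 at the first summit and -0.66 at the one 1250 bp past the start. Over 3825 main-list regions the median of that ratio was 0.24. Its spread was not taken, so how unusual the vit-2 ratios are is not known. The vit-6 summits described below went both ways. Their ratios were -0.53 (2801 bp past the start), 0.81 (3014 bp), 0.54 (3918 bp) and -0.75 (4554 bp).

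At vit-6 the lists placed different regions. The only main-list region, chrIV:8264887-8265262, had its summit 3918 bp past the start, in coding sequence, with a whole-series signal of 97.4 at rank 3190. Replicate 1 had 42.3 there and replicate 2 had 61.4 (51.8 ± 13.5, mean ± SD, n = 2), at scores 77 and 437, and neither replicate's thresholded list overlapped it. The other whole-series list lacked this region and instead had 3, with summits 2801, 3014 and 4554 bp past the start and signals up to 115. The first pair, a merged stretch at chrIV:8263770-8264358, was the part of vit-6 that both replicates called on their own. Replicate 1 called a summit 3014 bp past the start and replicate 2 called summits 2799 and 3013 bp past it.

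In both replicates the signal was higher at the first summit of that pair. Nearest to the summit at 2801 bp they were 61.5 in replicate 1 and 42.6 in replicate 2, and nearest to that at 3014 bp they were 22.2 and 38.9. In replicate 1 the called region ranked 29148 of 56113 by signal although its score was 1000. In replicate 2 the called regions, at 42.6 and 38.9, ranked 8707 and 11314 of 78104. That 1 call of replicate 1 thus lay near the middle of its list by signal, and both calls of replicate 2 lay higher in theirs. The summit at 2801 bp was also the vitellogenin region closest to the main threshold from below, at score 803 in the conservative ranked list. Next came vit-5 at 2540 bp past its start (score 687, signal 78.4), vit-6 at 763 bp (score 652) and vit-2 at 3571 bp (score 570), while the weakest inside was the vit-6 region at score 909.

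The windows of 100 bp either side of 3 main-list summits, the highest of each stretch at vit-2 and vit-6, are shown. The vit-6 summit was in neither replicate's thresholded list, and the vit-6 stretch that both replicates called is not shown. Capitals mark CCAAT, the only one of the 3 motifs found in the windows shown.
vit-2, around the summit 142 bp past the start, chrX:5101084-5101284, plus strand: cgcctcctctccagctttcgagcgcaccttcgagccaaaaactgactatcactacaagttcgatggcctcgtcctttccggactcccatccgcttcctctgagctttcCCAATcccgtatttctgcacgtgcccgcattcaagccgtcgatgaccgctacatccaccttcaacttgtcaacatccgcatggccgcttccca
vit-2, around the summit 1250 bp past the start, chrX:5102192-5102392, plus strand: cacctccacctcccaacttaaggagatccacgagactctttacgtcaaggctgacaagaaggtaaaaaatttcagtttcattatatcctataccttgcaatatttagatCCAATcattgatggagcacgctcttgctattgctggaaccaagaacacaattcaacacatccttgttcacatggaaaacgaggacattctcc
vit-6, around the summit 3918 bp past the start, chrIV:8264975-8265175, plus strand: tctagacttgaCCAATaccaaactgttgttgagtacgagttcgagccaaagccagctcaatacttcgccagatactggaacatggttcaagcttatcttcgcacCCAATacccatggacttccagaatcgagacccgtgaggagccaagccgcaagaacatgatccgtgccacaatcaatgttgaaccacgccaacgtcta

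Each of these windows held CCAAT, starting 8 bp past the first vit-2 summit, 9 bp past the second and 4 bp past that of vit-6. The vit-6 window held a further box, and the window at the vit-2 summit 1450 bp past the start held none. In all, 4 of the 5 main-list windows held it, against 36.9% of the 3879 nuclear main-list summits. Of the 5, 4 lie in 1 gene, in neighbouring pairs, so they are not independent. Windows of this length away from summits were not counted, so how often any such window holds CCAAT is not known. In the other whole-series list, the vit-6 windows at 2801 and 3014 bp past the start held CCAAT and that at 4554 bp did not. GC content was 55.7% at the first vit-2 summit, 41.3% at the one 1250 bp past the start and 48.8% at that of vit-6, against a median of 43.8% over the nuclear main-list windows. The whole genes had 48.5% at vit-2 and 47.9% at vit-6.

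Below the threshold, every vitellogenin gene had regions in the ranked lists, most of them in the body. All 6 had a ranked body summit in each replicate. Among genes of 4 to 6 kb, 78.1% did so in replicate 1 and 80.3% in replicate 2. The conservative ranked list, which also holds the 5 main-list regions, had 58 body summits and 7 promoter summits on the 6 genes. By gene it had 6 to 12 body summits, where the median gene of 4 to 6 kb had 5. By the highest signal, the body exceeded the promoter at 5 of 6 genes in replicate 1, where 57.1% of genes of 4 to 6 kb did so, and at 5 of 6 in replicate 2, where 59.1% did. The exception was vit-4 in replicate 1 and vit-3 in replicate 2. A body of 5128 to 5303 bp is longer than the 1000 bp before a start, so body and promoter were not compared over equal lengths. The part that length plays was not tested.

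Promoter signals lay around those of other genes of like length. In replicate 1 the ranked list had no summit before vit-1, vit-2, vit-3 or vit-6, a signal of 37.0 before vit-4 and 18.8 before vit-5. In replicate 2 it had none before vit-1, 14.0 before vit-2, 25.2 before vit-3, 19.9 before vit-4, 38.5 before vit-5 and 11.9 before vit-6. The promoter of vit-1 was thus empty in both replicates, and no promoter was highest in both. Among genes of 4 to 6 kb the median was 0 in replicate 1 and 14.3 in replicate 2, with upper quartiles of 30.2 and 33.5.

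**Figure D2:**
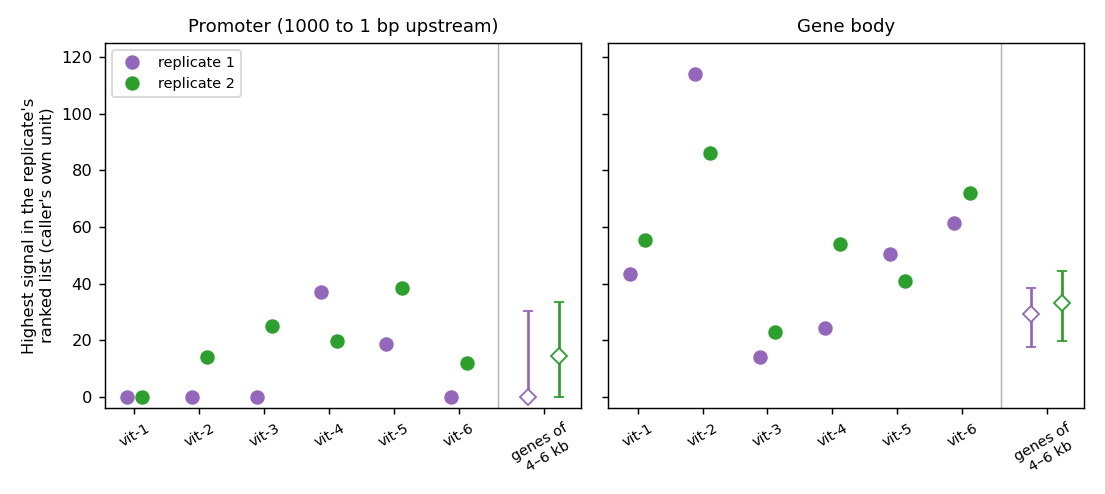
Highest signal of the replicate's ranked list in the promoter (left) and the gene body (right) of each vitellogenin gene, with replicate 1 in purple and replicate 2 in green, in the caller's own unit. Diamonds with bars are the median and quartiles of the 2008 protein-coding genes of 4 to 6 kb; vit-2 reached 114 and 86.0 in the body, and vit-3 lay at 14.1 and 23.1.

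Body signals ran in an order that both replicates shared at its ends. The highest body signal of vit-2 was 114 in replicate 1 and 86.0 in replicate 2, and in replicate 1 it was above that of 98.6% of the genes of 4 to 6 kb. That of vit-6 was 61.5 and 71.9, above 95.2% and 95.3% of those genes. In both replicates vit-2 stood first, vit-6 second and vit-3 last.

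The genes between them changed places. In replicate 1 the order was vit-5 (50.3), vit-1 (43.5) and vit-4 (24.2), and in replicate 2 it was vit-1 (55.5), vit-4 and vit-5 (41.1). Neighbours in these orders did not keep their places between the replicates, so no order among the 3 is given. At vit-3, 14.1 in replicate 1 and 23.1 in replicate 2 were below the medians of genes of 4 to 6 kb, 29.4 and 33.2.

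**Figure D3:**
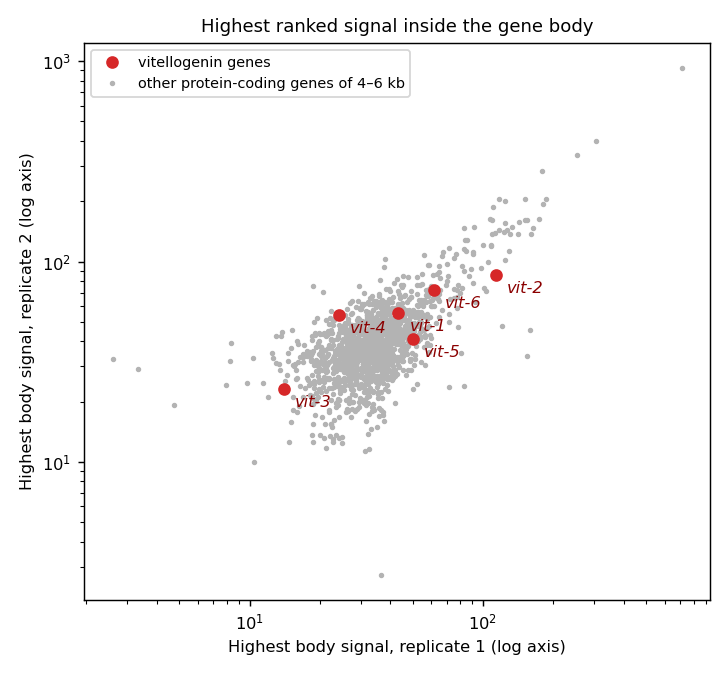
Highest body signal in replicate 1 (x) against replicate 2 (y), both on log axes in the caller's own unit, for the 1451 of 2008 protein-coding genes of 4 to 6 kb that had a ranked body summit in both. Vitellogenin genes are red; vit-2 and vit-6 lie toward the upper end and vit-3 toward the lower.

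Steps of 1 kb compare equal lengths, except for the last, which ran from 4 kb to the gene end. By these steps vit-2 was highest in its first kb in both replicates. That kb reached 114 in replicate 1 and 86.0 in replicate 2, and the stretch from 2 to 3 kb reached 31.2 and 48.4. The highest step of vit-6 was another one in each replicate. Along vit-6 the highest signals per step were 42.3 to 61.5 in replicate 1 and 25.2 to 71.9 in replicate 2. For the first kb of genes of 4 to 6 kb, 90% of the highest signals were at or below 35.2 in replicate 1 and 41.3 in replicate 2. In the conservative ranked list, regions covered 72.0% of vit-6, 65.4% of vit-2, 63.8% of vit-5, 63.6% of vit-3, 58.2% of vit-1 and 40.2% of vit-4, where the median gene of 4 to 6 kb had 35.2%.

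Near-identical copies limit what can be said of vit-3, vit-4 and vit-5. Their coding sequences were 97.7% to 99.0% identical in pairs, vit-1 and vit-2 were 93.8% identical, and vit-6 was at most 51.3% identical to any other. The sources used here do not say what was done with reads matching more than one place. Of all 50-base stretches, 78.6% in vit-4, 74.1% in vit-3 and 49.1% in vit-5 occurred elsewhere in the genome, against 13.1% in vit-2, 12.8% in vit-1 and 0% in vit-6. The median gene of 4 to 6 kb had 0%.

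In each replicate's own ranked list, cover was lowest at vit-3 and vit-4, the genes with most repeated sequence. In replicate 1 it was 9.26% of vit-3 and 16.0% of vit-4, and in replicate 2 it was 40.0% and 26.9%. The conservative ranked list, in which vit-3 was covered by 63.6%, did not show this for vit-3. At vit-5, with 49.1% of its 50-base stretches repeated, cover was 46.8% in replicate 1 and 67.7% in replicate 2. These values were above 94.3% and 99.1% of the genes of 4 to 6 kb. Gene vit-1, with 12.8% of its 50-base stretches repeated, had no called region. The part that repeated sequence plays in cover or in the absence of called regions was not tested at any of these genes. In the main-list regions of vit-2, the repeated share of 50-base stretches was 0% at the summits 142 and 1250 bp past the start, 3.98% at 346 bp and 12.2% at 1450 bp, the last close to the 13.1% of the whole gene. In the vit-6 region it was 0%.

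**Figure D4:**
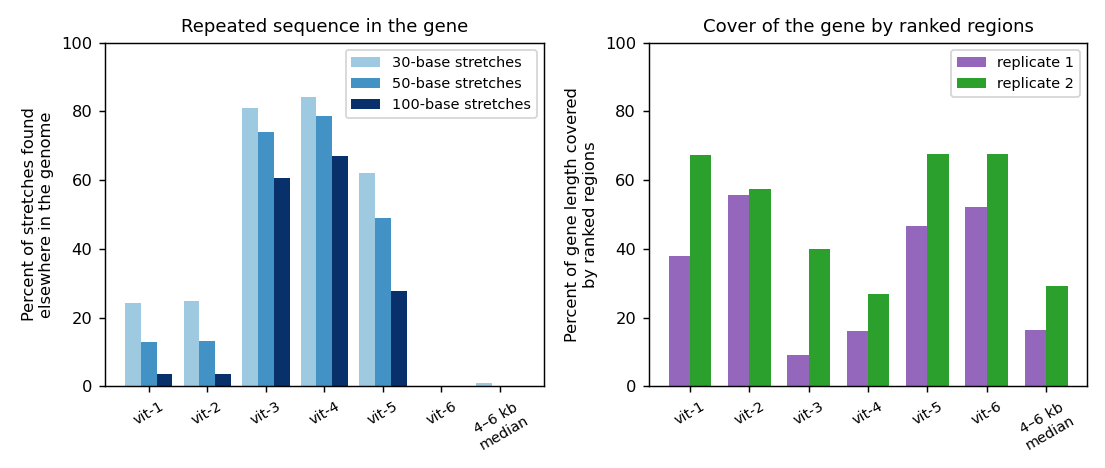
Left, percent of 30-, 50- and 100-base stretches of each vitellogenin gene that occur elsewhere in the genome on either strand. Right, percent of the gene covered by ranked regions in replicate 1 (purple) and replicate 2 (green); the last bars are medians of protein-coding genes of 4 to 6 kb. In vit-4, 78.6% of 50-base stretches were repeated, and in vit-6 0%.

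Before the starts the genes were less alike than in coding sequence. The 250 bp before vit-3 and vit-4 were 58.7% identical, and every other pair was at 49.8% or below. The bases of vit-3 from the TGTCAAT that began at -50 up to the start recurred unchanged before vit-4, from its TGTCAAT at -59. Of 50-base stretches in the 1000 bp promoters, 1.05% at vit-4 and 0.105% at vit-3 were found elsewhere, and 0% at the other 4 genes.

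Regions lay just past the ends of 4 of the 6 genes. This window was outside the rule by which regions were collected and was chosen after the distances were seen. In the main list a summit lay 323 bp past the end of vit-2, 284 bp past vit-3, 276 bp past vit-5 and 256 bp past vit-6, whereas the nearest lay 1063 bp past vit-4 and 55992 bp past vit-1. Within 500 bp past the end, 5.23% of all protein-coding genes and 5.38% of those of 4 to 6 kb had a main-list summit. The count was 4 of 6 in the other whole-series list (5.21% of all genes called), 3 of 6 in replicate 2 (3.11%) and 1 of 6, vit-6, in replicate 1 (2.34%). Because window and count were both read from the same distances, no weight can be given to the excess.

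Other genes overlapped 3 of these 4 summits. Past vit-2 the summit lay in C42D8.9, past vit-5 in unc-78, which encodes an actin-interacting protein, and past vit-6 in K07H8.8, each on the strand opposite to the vitellogenin gene. The distances to their starts were 550, 2736 and 1697 bp. The region past vit-3, at chrX:3566883-3567258, lay between vit-3 and vit-4 with no protein-coding gene at its summit, and 3106 bp before the start of vit-4, which made it the nearest main-list summit upstream of vit-4.

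The region past vit-6 was the one called in both replicates. Its signal was 65.0 in replicate 1 and 73.2 in replicate 2 (69.1 ± 5.79, mean ± SD, n = 2). Past vit-2 the signal was 83.9 in replicate 1 and 93.8 in replicate 2 (88.9 ± 6.99), at scores 86 and 1000. Past vit-5 it was 48.6 and 78.7 (63.7 ± 21.2), and past vit-3 it was 54.6 and 44.6 (49.6 ± 7.09), with no thresholded region in either replicate there.

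Far upstream, no main-list summit came near the other starts. The nearest upstream summit was 8087 bp from vit-6, 13535 bp from vit-3, 15419 bp from vit-2, 31987 bp from vit-5 and 46862 bp from vit-1. The promoter length of 1000 bp therefore did not decide the count.

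Genes of yolk uptake and secretion included promoter calls. Of 10 genes for yolk secretion and endocytosis, 4 had a main-list promoter summit and 4 a body summit, read against 7.80% and 7.24% of all genes. The yolk receptor gene rme-2 had a promoter signal of 124 in the main list and was called in replicate 1 and not in replicate 2. Promoters of rab-5, rab-7 and rab-11.1, GTPases of early, late and recycling endosomes, had 189, 166 and 224, and each was called in both replicates. Gene rme-1, which acts in endocytic recycling, had a body region alone (129). No region was called at rme-4, rme-6, rme-8, the clathrin heavy chain gene chc-1 or dsc-4, which encodes a microsomal triglyceride transfer protein.

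Among 9 regulators of the vitellogenins, 2 had a main-list promoter summit and 5 a body summit, against 7.80% and 7.24% of all genes. The intestinal GATA factor gene elt-2 had a promoter signal of 148 and was called in both replicates (76.6 and 73.3). In ceh-60, a PBX-class homeobox gene, a body region of 275 was called in both replicates (129 and 161), beside a promoter region of 93.8 in neither. Regions also lay in the bodies of unc-62 (138), which encodes a Meis-class homeodomain protein, lin-29 (169) and pqm-1 (118), which encode zinc finger factors, and rict-1 (148), the gene of a TORC2 subunit, and of these unc-62, lin-29 and rict-1 are long genes of 13989, 17702 and 18572 bp. No main-list region was found at elt-7, sgk-1 or mab-3, although replicate 2 alone called one in mab-3 (70.7).

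The other lists served as points of comparison, read against the same 7.80% and 7.24%. Of 10 genes with intestinal expression, 1 had a promoter summit, asp-1 (13.4), and 3 a body summit, asp-1 (108), act-5 (97.4) and fat-6 (110). Of 10 genes chosen as highly transcribed, 8 had a promoter summit and 2, eef-1G and act-4, a body summit. Promoter signals there ran from 85.0 at act-3 to 2120 at the ribosomal protein gene rpl-3, with 350 at eef-1A.1 and 507 at act-4. In the main list none of those 10 genes had a body region without a promoter region, as vit-2 and vit-6 had, whereas in the list of replicate 1 eef-1G had a body region alone (153). Among genes of 4 to 6 kb, 8.47% had a body summit alone in the main list, but none of the 10 falls in that range of length. The 8 genes with a promoter summit could not count, so no weight can be given to the 0 of 10. Most of the 10 are also shorter than the vitellogenin genes, from 1364 bp at act-1, with unc-54 the longest at 7582 bp. Body counts were thus not compared over equal lengths, and the part that length plays was not tested. The difference between the lists was not tested, since all were chosen by hand and with earlier results of these data known.

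The protein-coding genes most like the vitellogenins, by distance over the log10 of 1 plus the highest promoter and body signals in both replicates, were ZC477.3, Y38H8A.1, swt-3, snap-29 and lmtr-2. Their distances from the median vitellogenin gene were 0.022 to 0.044. The vitellogenin genes themselves lay 0.215 (vit-6) to 1.606 (vit-4) away from it. Each vitellogenin gene was thus farther from that median than the 5 named genes, which are the nearest of 19973 by construction.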

How the data were processed

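NFYB-1 ChIP-seq was deposited as 8 region lists on ce11, 4 thresholded and 4 ranked by IDR, from 2 replicates of 1 group. Per the description files deposited with the samples, whole-series lists derive from the alignments of both replicates and a control, which was not used here. The sources used here name neither aligner nor peak caller. Each deposited score is a scaled IDR, and each deposited signal is in the peak caller's unit, whose scale is not stated. The authors' −log10 columns hold the IDR (ranked lists) and a q-value that was not used. Depth is unknown, so no interval is given.

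Genes came from Ensembl release 115 of WBcel235, and sequences from RefSeq WBcel235. Coordinates are 1-based. Summits were counted from 1000 bp before a start to the gene end. Replicate values are those of the overlapping ranked region with the nearest summit. Text names the 6 genes, list genes with a main-list region, and the 5 genes nearest by highest signals; other list genes without a region, and C42D8.9, unc-78 and K07H8.8 at summits past gene ends, were named after their values were seen. Members, lists and window were chosen with earlier results of these data known. Planned protein identities were replaced by coding-sequence identities, from global alignments in Biopython 1.88. Counting and repeat functions were tested on simulated data. Nothing says whether the replicates came from separate cultures beyond their label as biological replicates.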

Additional observations from a re-analysis of the deposited data

How the results depend on the processing

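Promoter counts stayed at 0 of 6 in every thresholded list, at IDR 0.001, with 500 bp upstream and with overlap of both replicates' lists. Overlap of the region in place of its summit, and a promoter reaching 200 bp past the start, each gave 1 gene and 1 region, vit-2. Leaving out a replicate gave 3 to 4 body regions on 2 genes, 1 to 3 genes with a region past the end, and 4.18% to 5.53% of all genes with a promoter and 2.92% to 4.10% with a body region. An IDR of 0.001 left 2 body regions on 1 gene, 2 genes with a region past the end, and 4.29% and 2.67% of all genes. Overlap with both replicates' lists by 1 bp left 2 body regions on 1 gene, 1 gene with a region past the end, and 3.51% and 2.15% of all genes, and overlap by 50% left 1 region on 1 gene and 1 gene past the end. These settings keep fewer regions. No paired analysis was possible because there is 1 group. The unknown depth limits every count below the threshold.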
